A study of Rattus norvegicus with 4 samples.

Results

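The granins and the prohormone processing enzymes are the cargo and the cargo-cutting machinery of the dense-core granule, the organelle from which neuroendocrine cells release peptides and amines. The 10 genes taken here, chosen by symbol, were the granins Chga, Chgb, Scg2, Scg3, Scg5 and Vgf, the convertases Pcsk1 and Pcsk2, the convertase inhibitor Pcsk1n and the carboxypeptidase Cpe. Of the 10 genes, 9 had a row of their own among the 25810 genes of the count files, 8 had reads in at least 1 library and 7 were among the 13726 genes tested. Chga, the most widely used granin marker, was not analysed here. Messenger RNA was measured by RNA-Seq in PC12, a rat pheochromocytoma line that resembles adrenal chromaffin cells and sympathetic neurons, with no treatment named. The 2 libraries of wtPC12 came from the wild type clone with low REST, and the 2 libraries of hrPC12 from a clone that spontaneously expresses high levels of REST, a zinc finger repressor of neuronal genes. Each REST level is thus 1 clone, and what differs between the clones for other reasons cannot be told apart from REST.

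Granins are acidic secretory proteins that aggregate with calcium in the trans-Golgi network and take part in packing peptides and amines into granules. Many are themselves precursors, cut at pairs of basic residues by the prohormone convertases encoded by Pcsk1 and Pcsk2, after which carboxypeptidase E removes the basic residues left at the cut end. Several granin genes are known targets of REST, which binds a long element made of separate left and right arms, and several carry a cyclic AMP response element close to the transcription start. These enzymes and granins are abundant in chromaffin cells, from whose tumor PC12 was derived, although PC12 cells are known for having little or none of both convertases.

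The promoters of Scg2 and Vgf are shown because they held elements searched for. That of Chgb held none, and is shown because the mRNAs of Chgb and Scg2 fell about as far. RefSeq windows on the rat assembly GRCr8, from 250 bases before to 50 after the start, matched 8 of the 10 genes by symbol, all but Chga and Pcsk1. The last 130 bases before each start are printed 5′ to 3′ on the strand of the gene, with the elements named below in capitals. The windows lie at chr9:88256867-88256996 on the minus strand for Scg2, at chr12:25277021-25277150 on the minus strand for Vgf and at chr3:140496582-140496711 on the plus strand for Chgb.
Scg2: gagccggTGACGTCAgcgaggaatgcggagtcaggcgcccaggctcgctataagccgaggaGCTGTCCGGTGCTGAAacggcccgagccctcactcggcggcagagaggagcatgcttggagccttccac
Vgf: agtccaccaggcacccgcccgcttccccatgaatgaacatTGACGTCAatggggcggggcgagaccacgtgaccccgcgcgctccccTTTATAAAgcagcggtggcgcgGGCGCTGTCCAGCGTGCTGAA
Chgb: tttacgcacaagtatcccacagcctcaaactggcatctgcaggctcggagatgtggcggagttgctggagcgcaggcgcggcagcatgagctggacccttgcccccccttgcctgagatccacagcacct

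Exact words were searched for on both strands of the 8 windows and of all 33469 windows. The cyclic AMP response element TGACGTCA occurred in 2 of the 8 windows, 123 bases before the start in Scg2 and 90 in Vgf, and in 1.83% of all windows. The left arm of the REST element, TTCAGCACC, occurred in 1 of the 8 windows, that of Scg2, on the opposite strand and beginning 62 bases before the start, and in 0.356% of all windows. The right arm, GACAGCGCC, occurred in 1 of the 8 windows, that of Vgf, on the opposite strand 21 bases before the start, and in 0.359% of all windows. The TATA box TATAAA occurred in 1 of the 8 windows, that of Vgf, once on each strand 41 and 43 bases before the start in overlapping copies, and in 14.2% of all windows. After these windows had been read, a looser search asked for TTCAGCAC followed by 0 to 4 bases and GGACAGC, again on both strands. It found both arms in 8 of the 33469 windows (0.0239%), among them Scg2 with 1 base between the arms and Vgf with 3, both on the opposite strand, with outer ends 69 and 18 bases before the start. Because this search was set with the Scg2 and Vgf windows already read, their match is a description. The share of all windows does not measure how unusual it is. A match is a run of letters and not a measured binding site, and no binding was measured in these libraries. Sequence outside the windows was not searched, so a window without a match, such as that of Chgb, says nothing of elements farther away. The part of these elements in the differences between the clones was not tested.

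Rest itself was read in every library, with 43.0 and 132 normalized counts in the wtPC12 libraries and 964 and 915 in those of hrPC12, always given in the order replicate 1, replicate 2. A normalized count here is the number of reads of a gene scaled to the mean effective library size. The hrPC12 libraries lay above both wtPC12 libraries, by 3.42 (SE 0.57) on the log2 scale, with an edgeR adjusted p value of 0.0115 that stays above the threshold of 0.01. Reads on genes numbered between 20975027 and 27246502 per library. Markers of cell types were read as lists. Since the lists were written with earlier results of these data known, their values are a description and do not test the labels. Of 9 tested chromaffin cell markers 6 were called lower in hrPC12, Th among them, and Ddc, Gata3 and Hand2 were not called. Among all 13726 tested genes 5.46% were called lower and 4.84% higher, by the thresholds given below. The summed chromaffin markers ranged from 194150 to 271554 normalized counts in wtPC12 and from 47132 to 50660 in hrPC12. Th made up 202932 and 132838 of the sum in wtPC12, and Ddc 26281 and 27995 in hrPC12. The other markers called lower had a lower log2 FC than Th (−3.08). They were Slc18a1 (−9.90), Slc6a2 (−8.42), Chrna3 (−6.74), Phox2a (−5.46) and Dbh (−5.34). The summed fibroblast markers went from 132.9 to 172.2 in wtPC12 to between 84942 and 89341 in hrPC12, with 5 of 7 tested genes called higher, and the skeletal muscle markers from 107.1 to 151.2 to between 954.9 and 1063, with 4 of 6 called higher. Col3a1 alone made up 83801 and 88143 of the fibroblast sum in hrPC12. Dcn of the fibroblast list (log2 FC −3.10, edgeR adjusted p = 0.0182) and Des of the muscle list (−1.99, adjusted p = 0.0527) had lower values in hrPC12 and were not called. Of the white blood cell, Schwann cell and adrenocortical markers 1, 1 and 3 genes were tested and 0 were called. The white blood cell sum ranged over the 4 libraries from 9.3 to 22.1 normalized counts. The Schwann cell sum was 154.7 and 154.5 in wtPC12 and 236.2 and 257 in hrPC12, while Sox10 had no read in any library. The adrenocortical sum was 116.3 and 94.8 in wtPC12 and 292.9 and 263.1 in hrPC12, with Cyp21a1 (log2 FC 4.33, edgeR adjusted p = 0.0166) and Cyp11a1 (3.13, adjusted p = 0.0147) higher but short of the threshold. The part of these marker differences in the granin results was not tested, and in bulk libraries fewer cells of a type and less RNA per cell cannot be told apart.

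The 7 tested granin and processing genes were lower in hrPC12 as a group, and the fall ranged from 2.16-fold in Vgf to 1173-fold in Scg2 and 1189-fold in Chgb. The test asked for reads in both clones, which left out Pcsk2, with 0 reads in both wtPC12 libraries and 24 and 13 in hrPC12. Of the 7 tested genes 6 were called lower, with an adjusted p value under 0.01 and a log2 FC (hrPC12/wtPC12) below −2, against 5.46% of the 13726 tested genes. None of the 7 was called higher, against 4.84% of tested genes, and none had a positive log2 FC, so that none was higher at an unadjusted p value under 0.05, and DESeq2 called none higher either. In 7 of 7 genes both hrPC12 libraries lay below both wtPC12 libraries, which was the case for 35.6% of tested genes. The median log2 FC was −4.94 over the 7 genes, −9.61 over the 5 tested granins, −3.51 over Pcsk1n and Cpe, and 0.06 over all tested genes. With 1 library fewer in a clone the calls depended on which was left out. Without wtPC12 replicate 2 the number of genes called lower was 0, among the 7 and among all tested genes, since the smallest adjusted p value was then 0.013 while 7 of the 7 kept an unadjusted edgeR p value under 0.05 with a lower level in hrPC12, 6 of them past the fold threshold.

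**Figure D1:**
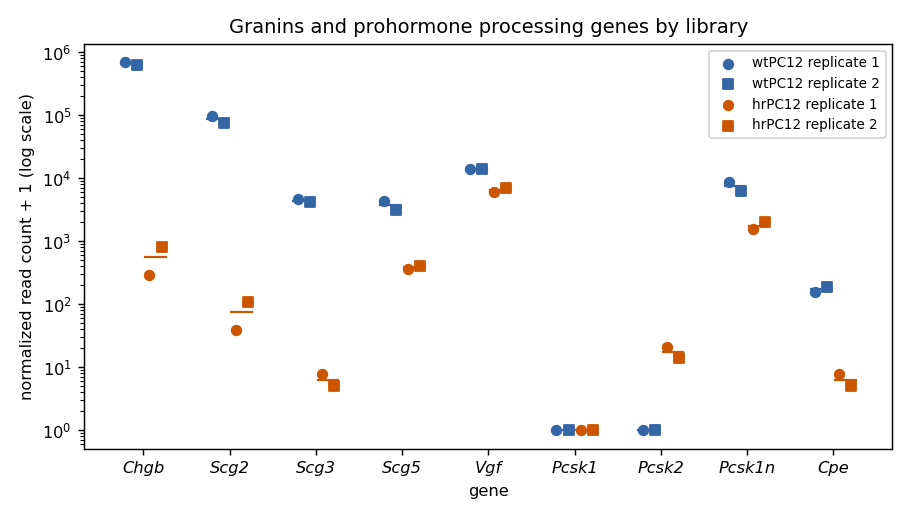
Normalized read counts plus 1 (log axis) of the 9 granin and processing genes with a row, in the 2 wtPC12 libraries (blue) and the 2 hrPC12 libraries (orange), each point 1 library and each bar the mean of a clone. The hrPC12 points lie below the wtPC12 points for the 7 tested genes, Pcsk2 has reads in hrPC12 alone and Pcsk1 has none.

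Chgb encodes chromogranin B, a major soluble protein of the chromaffin granule. It had 687936 and 626776 normalized counts in wtPC12 against 288 and 820 in hrPC12. Both hrPC12 libraries were far below both wtPC12 libraries, and they differed from each other by 2.85-fold, more than the wtPC12 libraries did. The means were 657356 ± 43246 and 554 ± 376 (SD, n = 2), and the log2 FC was −10.22 (SE 0.80, 95% interval −12.26 to −8.18, edgeR adjusted p = 0.00126), a 1189-fold lower level with an interval from 289 to 4888. This log2 FC was number 8 from the bottom of the 13726 tested genes. Without hrPC12 replicate 1 it was −9.65 and without hrPC12 replicate 2 it was −11.20.

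Scg2 encodes secretogranin II, the precursor of secretoneurin. Its normalized counts were 96778 and 74670 in wtPC12 and 38.1 and 109 in hrPC12, with the same order of the hrPC12 libraries as for Chgb and a ratio of 2.87 between them. The means were 85724 ± 15633 and 73.7 ± 50.3 (SD, n = 2), with a log2 FC of −10.20 (SE 0.69, 95% interval −11.97 to −8.43, edgeR adjusted p = 0.000916), or 1173-fold lower. It ranked 11 from the bottom, and was −9.61 without hrPC12 replicate 1 and −11.18 without hrPC12 replicate 2. The counts of Scg2 for every 100 reads of Chgb were 14.1, 11.9, 13.2 and 13.3, the first pair in wtPC12 and the last pair in hrPC12, so that this ratio stayed within the range of the wtPC12 libraries while both genes fell by about the same factor.

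Scg3 encodes secretogranin III, which binds cholesterol-rich granule membrane and anchors other granins there. It had 4674 and 4145 normalized counts in wtPC12 and 6.77 and 4.05 in hrPC12, the latter from 8 and 4 reads. Here the hrPC12 libraries were in the opposite order to that of Chgb and Scg2, at counts where sampling error is large. The log2 FC was −9.61 (SE 0.32, 95% interval −10.43 to −8.80, edgeR adjusted p = 0.000243), 783-fold lower, and it ranked 29 from the bottom.

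Scg5 encodes a small chaperone of the convertase encoded by Pcsk2, needed for that enzyme to mature. Its normalized counts were 4420 and 3119 in wtPC12 and 367 and 402 in hrPC12. The groups did not overlap, and the hrPC12 libraries kept 9.75% and 10.7% of the wtPC12 mean. The log2 FC was −3.29 (SE 0.25, 95% interval −3.93 to −2.65, edgeR adjusted p = 0.00119), 9.80-fold lower, an interval apart from those of Chgb, Scg2 and Scg3.

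Vgf, a nerve growth factor inducible precursor of several secreted peptides, was the tested granin with the smallest difference. It had 14046 and 13968 normalized counts in wtPC12 and 6032 and 6937 in hrPC12, with no overlap. The log2 FC was −1.11 (SE 0.17, 95% interval −1.56 to −0.66), 2.16-fold lower with an interval from 1.59 to 2.94. Its edgeR adjusted p value of 0.00997 was under 0.01, but the log2 FC lay within 2, so that Vgf was not called, and 14.9% of tested genes had a lower log2 FC. Over the settings that kept all 4 libraries and tested for any difference the adjusted p value went from 3.74e-05 with DESeq2 to 0.0103, with glmTreat, which tests against the fold threshold itself, it was 1, and with any library left out it rose to between 0.0265 and 0.0974. Vgf and Scg2 thus differed in their log2 FC with intervals far apart. The windows of both hold a cyclic AMP response element and 1 exact arm of the REST element. Both arms were found in them only by the looser search set after they were read.

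**Figure D2:**
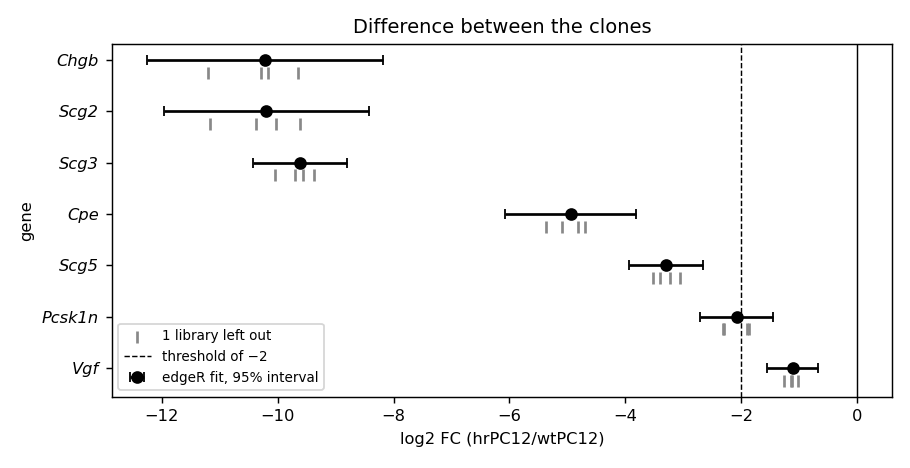
The log2 FC (hrPC12/wtPC12) of the 7 tested genes with 95% intervals (bars), the threshold of −2 (dashed line) and the values with each library left out in turn (grey ticks). Chgb, Scg2 and Scg3 lie between −9.61 and −10.22, Cpe at −4.94, Scg5 at −3.29, Pcsk1n at −2.08 and Vgf at −1.11.

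The convertases themselves were scarcely read. Pcsk1 had 0 reads in all 4 libraries, which allows up to 3 reads or between 2.54 and 3.49 normalized counts per library and gives no comparison. Pcsk2 had 0 reads in both wtPC12 libraries and 24 and 13 reads, or 20.3 and 13.2 normalized counts, in hrPC12. It was the only one of the 8 genes with reads that was higher in hrPC12, by at least 5.09-fold against the floor of 3 reads per wtPC12 library, and by at least 4.00-fold without hrPC12 replicate 1 and 6.18-fold without hrPC12 replicate 2. Since it had no read in wtPC12 it was outside the test, and when every gene with at least 1 read was tested its edgeR adjusted p value was 0.00734 and it was called higher. Its chaperone Scg5 was thus lower in the clone in which the Pcsk2 reads were found.

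Pcsk1n encodes proSAAS, a granin-like inhibitor of the convertase encoded by Pcsk1. It had 8683 and 6315 normalized counts in wtPC12 and 1551 and 2003 in hrPC12, with no overlap between the clones. The log2 FC was −2.08 (SE 0.25, 95% interval −2.71 to −1.44, edgeR adjusted p = 0.00443), 4.22-fold lower and just past the threshold of −2. It fell short of it with library totals alone (−1.999), without wtPC12 replicate 1 (−1.86) and without hrPC12 replicate 1 (−1.90).

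Cpe, which encodes carboxypeptidase E, had 158 and 186 normalized counts in wtPC12 and 6.77 and 4.05 in hrPC12, the latter again from 8 and 4 reads. The hrPC12 libraries kept 3.93% and 2.35% of the wtPC12 mean. The log2 FC was −4.94 (SE 0.45, 95% interval −6.08 to −3.81, edgeR adjusted p = 0.00188), 30.8-fold lower, an interval below that of Pcsk1n.

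**Figure D3:**
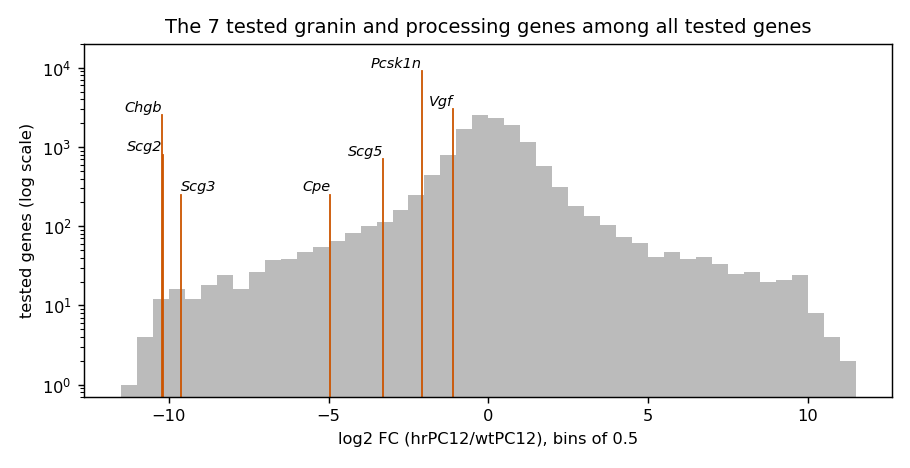
Number of tested genes (log axis) by log2 FC (hrPC12/wtPC12) in bins of 0.5, over the 13726 tested genes, with the 7 granin and processing genes marked by lines whose heights only make room for the names. Chgb, Scg2 and Scg3 lie at the far lower end, while Vgf lies in the main body.

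Summed over the 8 genes with reads, the granin and processing mRNAs took 3.35% and 3.22% of all gene reads in wtPC12 and 0.0360% and 0.0470% in hrPC12. The Wilson 95% intervals, which cover counting error only, were 3.34 to 3.35, 3.21 to 3.23, 0.0353 to 0.0367 and 0.0461 to 0.0479. The clone means were 3.28 ± 0.0916% and 0.0415 ± 0.00777% (SD, n = 2), a 79.1-fold difference, for which the exact two-sided permutation p value was 0.333, the smallest that 2 against 2 libraries can give. Without Chgb the shares were 0.528%, 0.452%, 0.0348% and 0.0433%. The make-up of these reads differed between the clones. Chgb held 84.2% and 86.0% of them in wtPC12 and 3.46% and 7.96% in hrPC12, whereas Vgf held 1.72% and 1.92% in wtPC12 and 72.6% and 67.4% in hrPC12. These shares are of reads and not per length, so they compare the clones for 1 gene and not the genes with each other. The number of Pcsk1n reads for every 100 of Vgf was 61.8 and 45.2 in wtPC12 and 25.7 and 28.9 in hrPC12, also without overlap.

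What was left in hrPC12 was set against other abundant genes. Chgb kept 0.0438% and 0.125% of its wtPC12 mean in hrPC12 replicates 1 and 2, and Scg2 0.0444% and 0.127%. Among the 317 genes with a wtPC12 mean of at least 10000 normalized counts, 1 kept less than Chgb in hrPC12 replicate 1 and 2 in replicate 2, and Dlk1 kept the least in replicate 1, 0.0428%, and Syt4 in replicate 2, 0.0793%. Among the 5161 genes with a wtPC12 mean of at least 1000, 12 kept a smaller percent than Chgb in hrPC12 replicate 1 and 9 in replicate 2. For Scg2 these numbers were 13 and 10. In raw reads, 25 of the 5161 genes in replicate 1 and 15 in replicate 2 had no more than 3. Chgb had 340 and 810 reads and Scg2 45 and 108. Raw reads left depend on the wtPC12 level, so they do not rank the genes by how far they fell. Whether the Chgb and Scg2 reads of hrPC12 come from each cell, from few cells or from another source cannot be told apart and was not tested. The median log2 ratio of hrPC12 replicate 1 to replicate 2 over the 7 nearest tested genes along GRCr8 lay between −0.10 and 0.13 around each of the 7 genes, so that the lower Chgb and Scg2 counts of replicate 1 were not shared by their neighbours.

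**Figure D4:**
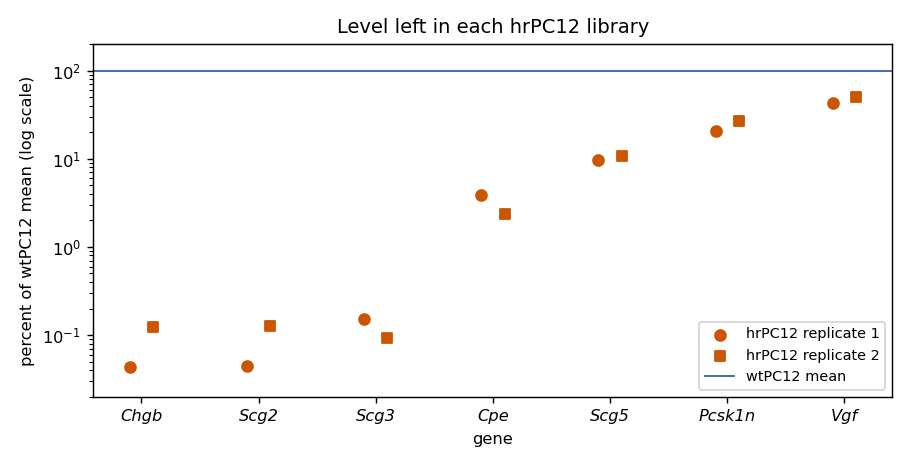
Level left in each hrPC12 library as a percent of the wtPC12 mean (log axis) for the 7 tested granin and processing genes, with replicate 1 as circles, replicate 2 as squares and the wtPC12 mean as a line. Chgb, Scg2 and Scg3 lie between 0.0438% and 0.154%, with replicate 1 lower for Chgb and Scg2 but not for Scg3, and Vgf lies at 43.1% and 49.5%.

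The genes with levels most like those of Chgb over the 4 libraries, by the distance between centred log2 values, were Scg2 at 0.18, A4galt at 0.35, Dlk1 at 0.40, Grin1 at 0.42 and Ecel1 at 0.54. Scg2 is thus the nearest of all 13726 tested genes. The distance rests on 4 libraries of 2 clones and is a description.

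Most of the other enzymes that process peptides passed the thresholds in neither direction. The shares to set beside the counts below are 5.46% of all tested genes called lower and 4.84% called higher. Of 9 symbols listed for further enzymes that process peptides, older and newer symbols counted separately, 7 were tested. Of these 1 was called lower and 0 higher, with a median log2 FC of 0.18. The gene called lower was Ecel1, a membrane metallopeptidase of neural cells, with 4358 and 4030 normalized counts in wtPC12 and 0.847 and 7.08 in hrPC12. Pam, which amidates the C-terminus of many peptides after carboxypeptidase E has acted, had 2853 and 2812 in wtPC12 and 7804 and 4418 in hrPC12, both above wtPC12, with a log2 FC of 1.11 (SE 0.30) whose edgeR adjusted p value of 0.0446 missed the threshold. Qpct was not analysed here. Of 11 convertases and carboxypeptidases with a wider tissue range 7 were tested, 1 was called lower, Cpz, and 0 higher, with a median log2 FC of −0.10. Furin, the convertase of the constitutive pathway, had 10773 and 11274 normalized counts in wtPC12 and 4511 and 4752 in hrPC12, a log2 FC of −1.25 (SE 0.16, edgeR adjusted p = 0.0056) within the fold threshold. Cpd, the carboxypeptidase of the trans-Golgi network related to Cpe, had 527 and 1449 in wtPC12 and 4422 and 2131 in hrPC12, with a log2 FC of 1.73 (SE 0.59) and an adjusted p value of 0.0787.

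Proteins of the granule membrane and of granule release were mixed. Again 5.46% of all tested genes were called lower and 4.84% higher. Of 13 granule membrane genes 10 were tested and 4 called lower, with a median of −0.38. They were Ptprn (log2 FC −3.07) and Ptprn2 (−9.96), phosphatase-like proteins spanning the granule membrane, Slc18a1 (−9.90), the vesicular monoamine transporter of chromaffin cells, and Sv2a (−2.40), a vesicle glycoprotein. None was called higher, while RLE factors, library totals alone and DESeq2 each called 1 higher, as did the fits without hrPC12 replicate 1 or replicate 2. Of 30 symbols listed for granule formation, docking and release, older and newer symbols counted separately, 22 were tested. Of these 6 were called lower and 1 higher, with a median of −0.12. The 1 of 22 called higher is close to the share among all tested genes. Among those lower were Rab27a (−2.31) and Rab3a (−2.31), GTPases of granule docking, Sytl4 (−5.41), a Rab27 effector, and Cadps (−6.61), which primes granules for release. Sytl5, another Rab27 effector, was called higher, with 1.16 and 2.06 normalized counts in wtPC12 and 51.6 and 36.4 in hrPC12, a call that was lost without wtPC12 replicate 1 and with glmTreat. Among peptide precursors that are not granins, 11 of 32 were tested, 3 were called lower and 2 higher, with a median of 1.21. Penk, the enkephalin precursor stored in chromaffin granules, went from 1940 and 955 normalized counts in wtPC12 to 1.69 and 6.07 in hrPC12, and Crh (−4.53) and Stc1 (−2.12) were lower too. Cck, the cholecystokinin precursor, had 27.9 and 19.6 in wtPC12 and 17456 and 21106 in hrPC12, and Nts, the neurotensin precursor, 3.49 and 4.12 against 2541 and 2872, so that both precursors were higher in the clone in which 4 granins were called lower. Without wtPC12 replicate 2 none of the calls in these lists held, as for all tested genes.

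**Figure D5:**
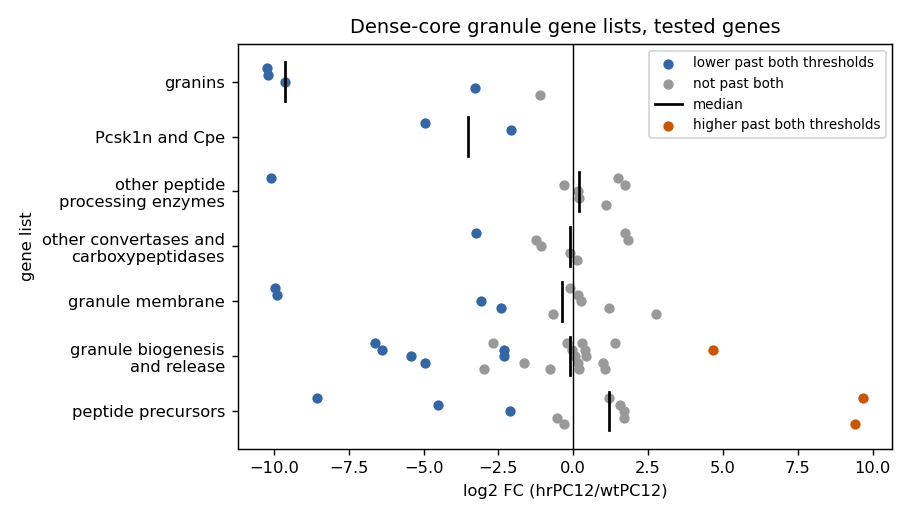
The log2 FC (hrPC12/wtPC12) of the tested genes of each list, each point 1 gene, blue or orange where past both thresholds, with the median of each list as a bar. The granins have the lowest median, −9.61, but run from −10.22 (Chgb) to −1.11 (Vgf), and single genes of other lists, such as Ecel1 (−10.09), lie as low. The precursors that are not granins spread to both sides, with a median of 1.21.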

How the data were processed

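Total RNA of 2 PC12 clones, 2 libraries each, was sequenced as paired-end reads after TruSeq preparation. The authors deposited raw read counts per gene and library, made, per the labels, with TopHat2 2.0.4 on build rn4 and HTSeq 0.5.3, without normalization. The authors' DESeq table (DESeq 1.9.12), which holds mean normalized counts per clone, fold changes and p values, was not used. Strandedness is not given in the sources used here. Totals of reads outside genes were left out of library sizes. Libraries were numbered in accession order, and nothing says that they came from separate cultures, so p values measure the spread between libraries only.

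Counts were scaled by TMM and compared with edgeR 4.0.16 in R 4.3.3 (limma 3.58.1), by the quasi-likelihood test with Benjamini-Hochberg adjustment over the genes that had reads in each clone and averaged 5 normalized counts or more. Genes were called at an adjusted p value under 0.01 and a log2 FC past 2, as in the study's methods. Intervals are 95%. The script was tested on simulated data. The alternatives included DESeq2 1.42.0. The members and the gene lists were chosen with earlier results of these data known. Genes named were the members, Rest, up to 4 genes per list and direction past both thresholds with the highest mean, Furin, Cpd, Pam and Qpct, and the 5 genes nearest to Chgb; the cell type markers and Syt4 were named after their values were seen. Transcript lengths and protein sequences were not used here. Of the tested genes 65.2% were placed along GRCr8 by symbol, for the order of genes alone.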

Additional observations from a re-analysis of the deposited data

How the results depend on the processing

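With 2 libraries per clone of 1 clone each, the calls rest on few degrees of freedom. Of 91 alternative values of single genes 81 kept their direction and side of the threshold, 10 lost the call and 0 reversed. The number of genes called lower among all tested genes went from 749 to 353 with glmTreat, which tests against the fold threshold itself, and the number called higher from 665 to 1127 with every gene with at least 1 read, 321 with glmTreat and 1088 at an adjusted p value under 0.05. Leaving out 1 library gave 0 to 920 genes lower and 0 to 957 higher, and 0 to 6 of the granin and processing genes lower. The 0 came each time without wtPC12 replicate 2, when 3583 genes were lower and 3359 higher at an unadjusted edgeR p value under 0.05, 984 and 1353 of them past the fold threshold. With glmTreat 5 of the granin and processing genes were called lower, without Pcsk1n, and with every gene with at least 1 read 1 was called higher, Pcsk2. Their median log2 FC was −4.54 with a prior count of 2 and −5.37 to −4.69 with 1 library left out. The difference of their summed share (hrPC12 minus wtPC12) was −3.24 percentage points of gene reads, −1.33 of all reads accounted for, and −3.31 to −3.18 with 1 library left out. The genes of granule formation and release called lower numbered 8 with RLE factors, library totals alone and DESeq2 and 3 with glmTreat. Another scaling moved the median log2 FC of all genes to between 0.024 and 0.128. No paired analysis was possible because the labels give the clones no 2 replicate numbers in common, and the numbers used here follow accession order and pair nothing. Levels of genes at a few reads, such as Scg3 and Cpe in hrPC12, are limited by depth.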
